A study of Mus musculus with 8 samples.

Results

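Ifnar1, Ifnar2, Ifngr1, Ifngr2, Jak1, Jak2, Tyk2, Socs1, Socs3 and Irf2 encode the receptor chains for type I and type II interferon, the Janus kinases bound to those chains, a pair of feedback inhibitors and a transcription factor that acts on interferon-responsive genes. These 10 genes were taken by name from a table of raw counts for 43346 mouse genes, and each name occurred once. They were compared between 4 libraries of LLC1 and 4 of MLE12, all from untreated cultures near confluence. LLC1 cells descend from the transplantable Lewis lung carcinoma of the mouse. MLE12 is a distal lung epithelial line derived from a tumour of mice in which the surfactant protein C promoter drove SV40 large T antigen, so both lines came from lung tumours. Whether the 4 libraries of a line were separate cultures is not stated, so the spread behind the p-values is that between these libraries and may be technical. Each line stands for itself, and no normal lung cell was measured.

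Interferons signal through paired receptor chains. Type I interferons bring IFNAR1, which carries the kinase TYK2, together with IFNAR2, which carries JAK1, and interferon gamma brings the ligand-binding chain IFNGR1 with its JAK1 together with IFNGR2 and its JAK2. The activated kinases phosphorylate STAT proteins. STAT dimers and the complex ISGF3, which holds STAT2 and IRF9, then enter the nucleus and switch on interferon-stimulated genes, among them those for the inhibitors SOCS1 and SOCS3 and for the activator IRF1, which IRF2 antagonises at shared DNA sites.

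The LLC1 libraries held 46.8 to 55.3 M counts each and the MLE12 libraries 48.6 to 76.7 M. Levels are given in CPM, the counts of a gene scaled to the size of its library, and log2 fold changes carry their SE and are negative where MLE12 was higher. Adjusted p-values come from the quasi-likelihood test of edgeR with Benjamini-Hochberg correction over all 18546 genes tested, and a gene was called at an adjusted p under 0.05. The lung epithelial markers Nkx2-1, Sftpc, Sftpb, Cdh1 and Epcam summed to 348 to 369 CPM in MLE12 and to 1.62 to 1.78 CPM in LLC1. Of 12 leukocyte markers, Adgre1, Tyrobp and Nkg7 had no count in either line and Ptprc had 0 counts in LLC1 and 2 in MLE12, while Cd68, Csf1r and Cd14 were above 1 CPM in both, and the 12 summed to 30.3 to 33.1 CPM in LLC1 and 19.6 to 22.3 CPM in MLE12. The 8 endothelial markers summed to 14.11 to 15.99 CPM in LLC1, most of it Egfl7, and to 4.82 to 5.59 CPM in MLE12, with Emcn at 0 in both. The part of these markers in the results was not tested. In bulk RNA of this kind, fewer cells that express a gene and less RNA per cell cannot be told apart.

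All 10 genes were expressed well enough to be tested. Jak1, Jak2, Socs1 and Socs3 were higher in LLC1. The 4 receptor chains and Irf2 were higher in MLE12. Tyk2 was not called. That is 9 of 10 called where 81.6% of all genes tested were called, 4 higher in LLC1 (40.7% of all genes) and 5 higher in MLE12 (40.9%), so the number of calls was near the background. Against a minimum fold change of 2 (edgeR's glmTreat), 4 of the 10 were called where 33.7% of all genes were, 1 toward LLC1 (16.7% of all genes) and 3 toward MLE12 (16.9%). The libraries of the lines did not overlap in CPM for 9 of the 10, against 76.3% of all genes tested. The median absolute log2 fold change of the 10 was 0.69, beside 0.74 over all genes tested. Among the 10, the receptor chains were higher in MLE12 and the called kinase and SOCS genes higher in LLC1. Whether direction goes with role was not tested. Ifnar1, Ifnar2 and Ifngr2 lie in 1 gene cluster, and the other SOCS family genes went both ways. The Socs1 difference was larger than that of 87.4% of the genes tested.

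**Figure D1:**
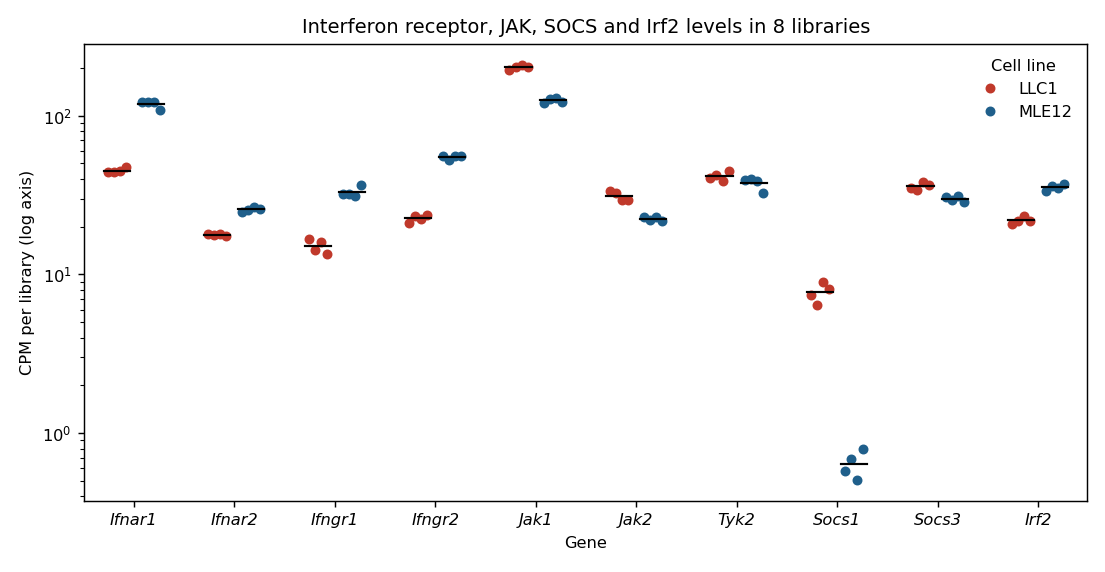
Level of each gene in CPM on a log axis, 1 point for each of the 4 libraries of LLC1 (red) and MLE12 (blue), with the mean of each line as a black bar. Socs1 lay between 6.41 and 9.01 CPM in LLC1 and between 0.507 and 0.800 CPM in MLE12, and Tyk2 is the gene whose lines overlap.

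The signal-transducing type I chain Ifnar1 (ENSMUSG00000022967, chromosome 16, 91485238 to 91507441, mm10) stood at 44.1, 44.0, 44.9 and 47.4 CPM in LLC1 replicates 1 to 4 and at 123, 122, 121 and 109 CPM in MLE12 replicates 1 to 4. Every MLE12 library lay above every LLC1 library, with MLE12 replicate 4 the lowest of its line. The log2 fold change was -1.40 ± 0.05 (adjusted p = 1.45e-15), a 2.63-fold higher level in MLE12. Its partner Ifnar2, which provides most of the affinity for the ligand (ENSMUSG00000022971, chromosome 16, 91372783 to 91405589), stood at 18.0, 17.7, 17.9 and 17.5 CPM in LLC1, and at 24.8, 25.4, 26.6 and 25.8 CPM in MLE12. The lines again did not overlap, but the difference was smaller, and the log2 fold change was -0.53 ± 0.05 (adjusted p = 3.43e-08). In the GENCODE M21 annotation 315 exonic bases of Ifnar2 are shared with Gm21970, a gene model that runs from Ifnar2 into Il10rb, and reads there could be split between them. Gm21970 itself stood at 8.82 CPM in LLC1 against 16.3 in MLE12 (-0.89 ± 0.08), the same direction as Ifnar2.

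Both interferon gamma receptor genes were higher in MLE12 as well. Ifngr1, the ligand-binding chain (ENSMUSG00000020009, chromosome 10, 19591949 to 19610229), stood at 16.8, 14.2, 15.97 and 13.4 CPM in LLC1, and at 32.2, 32.1, 31.1 and 36.4 CPM in MLE12. It varied more between LLC1 libraries than the other receptor chains did, with a coefficient of variation of 10.4%, and the lines did not overlap. The log2 fold change was -1.13 ± 0.07 (adjusted p = 3.21e-11). Ifngr2, the chain that recruits JAK2 (ENSMUSG00000022965, chromosome 16, 91547072 to 91565169), stood at 21.2, 23.5, 22.4 and 23.5 CPM in LLC1, and at 55.6, 52.4, 55.7 and 55.6 CPM in MLE12. All MLE12 libraries were above 50 CPM and all LLC1 libraries below 25 CPM, and the log2 fold change was -1.27 ± 0.05 (adjusted p = 1.43e-14). Of the 4 chains, Ifnar1, Ifngr1 and Ifngr2 passed the 2-fold test (adjusted p = 4.66e-08, 0.0384 and 1.16e-05) and Ifnar2 did not (adjusted p = 1.0). The call for Ifngr1 at 2-fold was marginal: it ended without LLC1 replicate 2 (adjusted p = 0.109), LLC1 replicate 4 (0.195) or MLE12 replicate 4 (0.0983), while the call for a difference of any size held without each of the 8 libraries in turn.

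To compare the genes with one another, levels were divided by the deposited gene length. Summed over the 4 chains, LLC1 held 25.1 ± 0.201 CPM per kb (SD, n = 4) and MLE12 56.1 ± 0.445. The ratio of Ifnar1 to Ifnar2 within a library, which no scaling between libraries can move, was 1.39, 1.41, 1.43 and 1.53 in LLC1 and 2.80, 2.72, 2.58 and 2.39 in MLE12. MLE12 thus had more Ifnar1 message per Ifnar2 message in every library, on average 1.82-fold more. Ifngr1 to Ifngr2 was 0.779 ± 0.119 in LLC1 and 0.700 ± 0.0492 in MLE12, and these ranges overlapped, so a difference in the balance of the gamma receptor chains was not seen beyond the spread of the libraries.

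**Figure D2:**
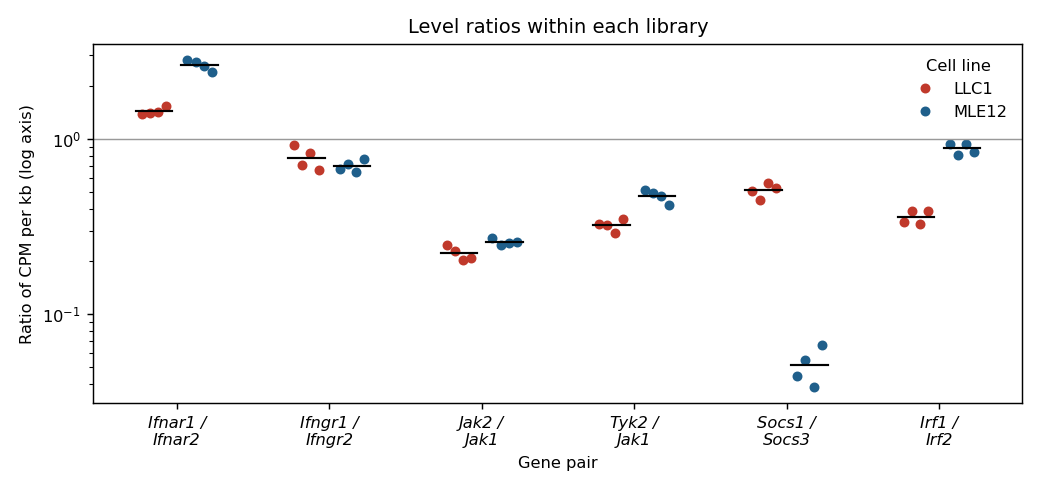
Ratio of 2 genes' levels (CPM per kb, log axis) within each library, 4 points for each line, with the mean as a black bar and a grey line at a ratio of 1. Ifngr1 to Ifngr2 overlaps between the lines, and the ratio of Socs1 to Socs3 differs most, 0.448 to 0.560 in LLC1 against 0.0386 to 0.0667 in MLE12.

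Ifnar2, Ifnar1 and Ifngr2 lie in 1 cluster with Il10rb, the chain shared by the interleukin-10 and type III interferon receptors, over 192.4 kb of chromosome 16 (91372783 to 91565169). Il10rb was at 7.83 ± 0.429 CPM in LLC1 against 22.9 ± 1.38 in MLE12 (-1.54 ± 0.07, adjusted p = 1.27e-13), so all 4 receptor genes of the cluster were higher in MLE12. Besides Gm21970, 7 other genes were tested within the cluster or 100 kb of it. Of these 6 were higher in MLE12 and 0 in LLC1, and the processed pseudogene Gm7856 was not called, where 40.9% of all genes were higher in MLE12. Their median log2 fold change was -1.11, beside 0.02 over all genes. The membrane protein gene Tmem50b, next to Ifngr2, stood at 2.09 ± 0.288 CPM in LLC1 against 53.4 ± 2.77 in MLE12 (-4.68 ± 0.08). Dnajc28, which encodes a DNAJ family protein, differed by -2.27 ± 0.14 (log2), and A930006K02Rik, a transcript without a known protein, by -2.07 ± 0.43 at under 1 CPM in both lines. Gm15964, antisense to Dnajc28, had -0.25 ± 0.06. Son, a splicing factor gene at the far end, had a log2 fold change of -1.11 ± 0.05. Gart, which encodes an enzyme of purine synthesis, had -0.49 ± 0.04. Several of these gene models overlap, so their counts are not independent. The part that shared position plays in the receptor differences was not tested. The remaining gene for a type III interferon receptor chain, Ifnlr1, lies elsewhere and had 2 counts over the LLC1 libraries and 1793 over those of MLE12 (6.33 ± 0.279 CPM). The ratio of its levels was 674, with a counting interval of 186 to 5569 (exact, 95%). Both LLC1 counts fell in replicate 4, and the interval treats them as independent. It would be too narrow if they came from 1 read pair.

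**Figure D3:**
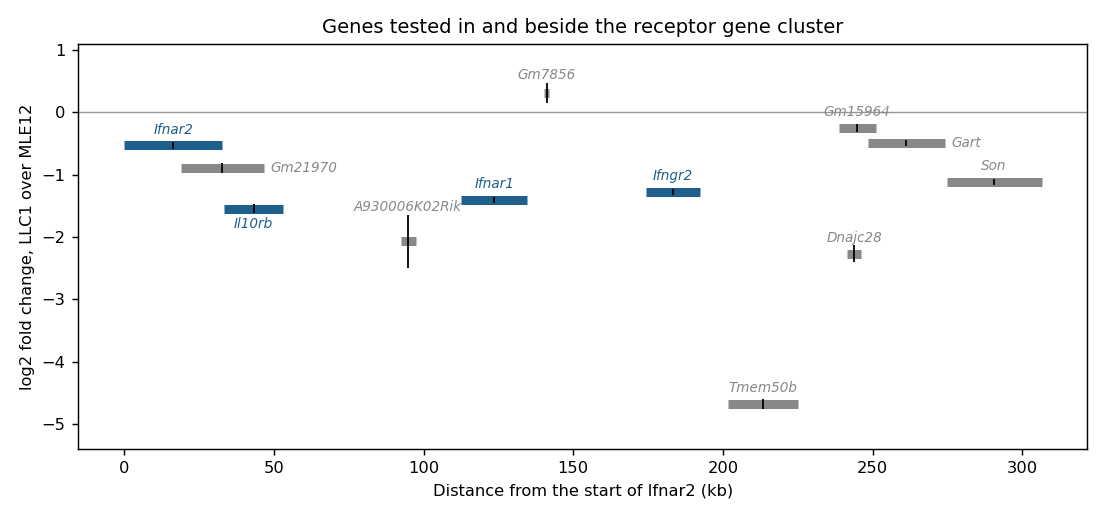
Log2 fold change of the 12 tested genes of the cluster and its flanks against distance from the start of Ifnar2 in kb, with each gene drawn as a bar over its span and its SE as a black line. The 4 receptor genes (blue) lie between -1.54 and -0.53, and of the other genes (grey) Gm7856 alone lies above 0.

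The kinases ran opposite to the receptors or did not differ. Jak1, which serves both interferon receptors and the gp130 cytokine receptors (ENSMUSG00000028530, chromosome 4, 101152367 to 101265282), stood at 194, 202, 209 and 201 CPM in LLC1, and at 121, 127, 129 and 122 CPM in MLE12. It had the highest mean CPM of the 10 genes in both lines, closely followed by Ifnar1 in MLE12, and every LLC1 library was above every MLE12 library. The log2 fold change was 0.69 ± 0.04 (adjusted p = 8.78e-12). Jak2, the kinase of IFNGR2 and of the erythropoietin and growth hormone receptors (ENSMUSG00000024789, chromosome 19, 29251828 to 29313080), stood at 33.3, 32.5, 29.6 and 29.4 CPM in LLC1, and at 22.9, 22.1, 22.9 and 21.8 CPM in MLE12. The lowest LLC1 library was above the highest MLE12 library, and the log2 fold change was 0.48 ± 0.06 (adjusted p = 2.73e-07). Tyk2, the kinase of IFNAR1 (ENSMUSG00000032175, chromosome 9, 21104069 to 21127346), stood at 40.7, 42.0, 38.9 and 44.8 CPM in LLC1, and at 39.5, 40.0, 39.0 and 32.8 CPM in MLE12. The lines overlapped, and MLE12 replicate 4 lay below the other 7 libraries. Its log2 fold change of 0.14 ± 0.06 did not pass the test (adjusted p = 0.0545). It did pass, with values of 0.15 to 0.17, without LLC1 replicate 1 (adjusted p = 0.031), LLC1 replicate 3 (0.0327) or MLE12 replicate 2 (0.047). Leaving out any other single library did not make it pass. Without MLE12 replicate 4 the value fell to 0.07 (adjusted p = 0.227), and without LLC1 replicate 4 to 0.11 (0.138). Tyk2 shares 554 exonic bases in GENCODE M21 with 1700084C06Rik on the other strand, which stood at 12.3 CPM in LLC1 against 18.3 in MLE12, and without a stated counting strand reads there cannot be assigned to either gene.

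Relative to Jak1, Tyk2 and Jak2 were rarer in LLC1 than in MLE12. Tyk2 to Jak1 per kb was 0.323 ± 0.0237 in LLC1 and 0.474 ± 0.0392 in MLE12, with no overlap between the lines. Jak2 to Jak1 was 0.223 ± 0.0198 in LLC1 and 0.258 ± 0.00935 in MLE12, where the highest LLC1 library (0.247) was just under the lowest of MLE12 (0.250). Jak3, which in vivo belongs mainly to lymphoid cells and pairs with the common gamma chain, was also present. It stood at 31.9 ± 3.14 CPM in LLC1 against 9.32 ± 0.496 in MLE12 (1.77 ± 0.07, adjusted p = 2.68e-14) and made up 12.1% of the summed JAK level per kb in LLC1 and 5.50% in MLE12. Il2rg, the gene of that common chain and named after its values were seen, had too few counts to be tested (27 in LLC1 and 12 in MLE12). The summed JAK level was 49.1 ± 1.09 CPM per kb in LLC1 and 31.7 ± 1.21 in MLE12.

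Socs1, whose protein blocks JAK kinases through its kinase inhibitory region (ENSMUSG00000038037, chromosome 16, 10783808 to 10785536), differed most of the 10. Its levels were 7.39, 6.41, 9.01 and 8.12 CPM in LLC1 and 0.582, 0.689, 0.507 and 0.800 CPM in MLE12. The MLE12 values rest on 40 to 52 counts a library, against 320 to 436 in LLC1, and every LLC1 library was several fold above every MLE12 library. The log2 fold change was 3.60 ± 0.16 (adjusted p = 7.34e-14), or 12.2-fold, and it passed the 2-fold test (adjusted p = 2.99e-12). Socs3, the inhibitor best known for acting on gp130 receptors (ENSMUSG00000053113, chromosome 11, 117966079 to 117970047), stood at 34.9, 33.9, 38.1 and 36.7 CPM in LLC1, and at 30.8, 29.6, 31.2 and 28.4 CPM in MLE12. The lines were separate but close, and the log2 fold change was 0.26 ± 0.05 (adjusted p = 2.22e-04). Socs1 to Socs3 per kb was 0.509 ± 0.0467 in LLC1 and 0.0513 ± 0.0124 in MLE12, a 9.91-fold difference with no overlap. With the longer GENCODE M21 model of Socs1 the ratios were 0.213 and 0.0215, with the fold between the lines 9.92.

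The other SOCS family genes went both ways. Of the 6 other genes, 2 were higher in LLC1, 3 were higher in MLE12 and Socs5 was not called, with a median log2 fold change of -0.35 beside 0.02 over all genes. Cish, a STAT5-induced inhibitor of cytokine receptors, stood at 0.583 ± 0.219 CPM in LLC1 against 20.3 ± 0.397 in MLE12 (-5.09 ± 0.14, adjusted p = 6.87e-17), opposite to Socs1. Socs2, which acts on growth hormone signalling, stood at 5.24 ± 0.276 CPM in LLC1 against 0.535 ± 0.297 in MLE12 (3.23 ± 0.27, adjusted p = 1.63e-08). Socs6 was higher in LLC1 (1.51 ± 0.05), and Socs4 (-1.03 ± 0.05) and Socs7 (-0.72 ± 0.05) were higher in MLE12. Summed over the 8 genes the family reached 53.0 ± 2.05 CPM per kb in LLC1 and 53.6 ± 0.697 in MLE12, with overlapping ranges (50.02 to 54.7 and 53.0 to 54.6). Of that sum Socs1 made up 11.9% ± 1.31 in LLC1 and 0.985% ± 0.185 in MLE12, and Cish 0.172% ± 0.0651 and 5.90% ± 0.116. The sums and the Socs1 share depend on length: with GENCODE M21 exon lengths the sums no longer overlapped (41.5 to 44.5 CPM per kb in LLC1, 48.6 to 49.7 in MLE12), and Socs1 made up 6.11% and 0.452%.

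**Figure D4:**
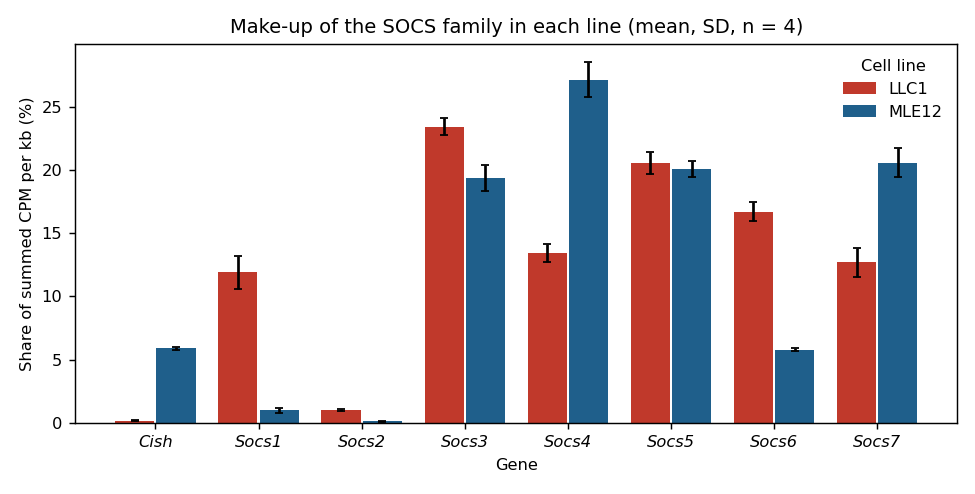
Share of each gene in the summed level of the 8 SOCS family genes (percent of CPM per kb), as the mean of 4 libraries with SD for LLC1 (red) and MLE12 (blue). Socs1, Socs2, Socs3 and Socs6 take larger shares in LLC1 and Cish, Socs4 and Socs7 larger shares in MLE12. With the deposited lengths used here, Socs5 is near 20% in both.

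Promoters are shown for Socs1 and Cish, which within the SOCS family moved most in opposite directions, for Socs3, and for Irf2. They were chosen because they hold the DNA sites that STAT dimers and interferon regulatory factors are known to read. The sequences are RefSeq's for GRCm38.p6, the build that mm10 denotes, and run 5′ to 3′ from 250 bases before to 50 bases after the RefSeq start site. Capitals mark each match on either strand to the STAT dimer site TTCNNNGAA or to the interferon-stimulated response element GAAANNGAAA. The windows are chr16:10785487-10785786 on the minus strand for Socs1, chr11:117969317-117969616 on the minus strand for Socs3, chr8:46739495-46739794 on the plus strand for Irf2 and chr9:107296409-107296708 on the plus strand for Cish.
Socs1: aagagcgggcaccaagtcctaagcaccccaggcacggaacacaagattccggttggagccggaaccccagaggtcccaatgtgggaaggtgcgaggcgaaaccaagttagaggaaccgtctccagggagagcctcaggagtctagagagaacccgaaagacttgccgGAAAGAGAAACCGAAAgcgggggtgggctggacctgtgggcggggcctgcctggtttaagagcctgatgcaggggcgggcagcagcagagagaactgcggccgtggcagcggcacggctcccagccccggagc
Socs3: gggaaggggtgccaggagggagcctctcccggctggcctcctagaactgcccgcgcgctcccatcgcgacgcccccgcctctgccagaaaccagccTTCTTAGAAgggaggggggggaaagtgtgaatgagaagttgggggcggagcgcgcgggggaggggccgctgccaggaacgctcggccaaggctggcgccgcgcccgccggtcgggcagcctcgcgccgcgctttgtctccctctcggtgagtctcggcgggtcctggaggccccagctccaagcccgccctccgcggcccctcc
Irf2: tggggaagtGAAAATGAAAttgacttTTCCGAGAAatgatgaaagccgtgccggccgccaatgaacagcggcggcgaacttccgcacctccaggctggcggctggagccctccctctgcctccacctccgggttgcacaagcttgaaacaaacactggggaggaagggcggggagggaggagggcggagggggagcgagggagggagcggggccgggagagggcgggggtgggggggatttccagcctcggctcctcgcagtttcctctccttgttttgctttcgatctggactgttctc
Cish: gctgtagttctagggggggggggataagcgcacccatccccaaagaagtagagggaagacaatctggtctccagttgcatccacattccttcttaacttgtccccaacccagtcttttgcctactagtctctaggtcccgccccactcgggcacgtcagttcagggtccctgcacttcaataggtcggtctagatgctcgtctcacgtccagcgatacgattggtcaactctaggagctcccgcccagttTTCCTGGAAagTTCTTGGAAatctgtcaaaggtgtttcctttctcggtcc

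A promoter was found for all 10 genes. The Socs1 window held 2 overlapping response elements, GAAAGAGAAA starting 83 bases and GAAACCGAAA starting 77 bases before the start site, and no STAT dimer site. Irf2 held the response element GAAAATGAAA starting 241 bases before its start and a STAT dimer site, TTCCGAGAA, starting 224 bases before it. Socs3 held 1 STAT dimer site, TTCTTAGAA, starting 154 bases before a RefSeq start that lies 681 bases inside the deposited gene. Cish held 2 STAT dimer sites, the first beginning at the RefSeq start itself, which lies 633 bases inside the deposited gene. Ifnar1 and Ifnar2 held 1 STAT dimer site each, and the windows of Ifngr1, Ifngr2, Jak1, Jak2 and Tyk2 held neither motif, though the RefSeq start of Tyk2 lies 3929 bases from the deposited one. Over 27025 mouse promoters of the same length, 8.47% held the STAT dimer site and 3.49% the response element. The response element matches of Socs1 and Irf2 differ in letters and in position. Whether any of these sites bears on the direction of a gene was not tested. A match is a run of letters and says nothing of whether a factor binds there in these lines.

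Irf2 (ENSMUSG00000031627, chromosome 8, 46739745 to 46847458), a factor known to bind the same sites as IRF1 and to oppose it, stood at 20.8, 21.8, 23.3 and 21.6 CPM in LLC1, and at 33.6, 35.9, 35.1 and 37.3 CPM in MLE12. All MLE12 libraries exceeded all LLC1 libraries, and the log2 fold change was -0.70 ± 0.06 (adjusted p = 7.34e-10), or 1.62-fold. Irf1 differed more in the same direction, with 12.6 ± 1.15 CPM in LLC1 against 49.8 ± 2.71 in MLE12 (-1.98 ± 0.07, adjusted p = 8.27e-16). The ratio of Irf1 to Irf2 per kb was 0.336, 0.389, 0.327 and 0.390 in LLC1 and 0.938, 0.803, 0.938 and 0.839 in MLE12. MLE12 thus had more Irf1 message per Irf2 message in every library, on average 2.44-fold more. Which of the pair was higher depends on the gene length: with GENCODE M21 exon lengths, longer for Irf2, the ratio was 1.07 ± 0.101 in LLC1 and 2.62 ± 0.205 in MLE12. Of the 6 other interferon regulatory factors tested, 1 was higher in LLC1, 4 were higher in MLE12 and Irf5 was not called, with a median of -1.14. Irf8, a factor of myeloid and B cells, was the one toward LLC1, with 7.07 ± 0.912 CPM in LLC1 against 0.0429 ± 0.0332 in MLE12 (7.42 ± 0.28). Irf7, the factor that amplifies type I interferon production, was low in both lines and higher in MLE12 (1.02 ± 0.218 CPM in LLC1 against 4.24 ± 0.720 in MLE12; -2.05 ± 0.17). Among 5 genes of IRF2 partner proteins, 1 was higher in LLC1 and 4 in MLE12. The acetyltransferase gene Kat2b (-1.78 ± 0.05) and the bromodomain gene Brd7 (-0.55 ± 0.04) were higher in MLE12, and Irf2bpl (0.54 ± 0.06) was higher in LLC1.

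Downstream of the kinases, STAT genes were mostly higher in MLE12, as the receptors were and the kinases were not. Of the 7 tested in the list of STATs and Irf9, 6 were higher in MLE12 and 1 in LLC1, where 40.9% and 40.7% of all genes were, and the median log2 fold change was -1.07. Stat2, a component of ISGF3, stood at 12.1 ± 0.901 CPM in LLC1 against 23.3 ± 0.326 in MLE12 (-0.94 ± 0.07, adjusted p = 8.71e-11). Irf9, its DNA-binding partner, differed more, with 7.68 ± 0.510 CPM in LLC1 against 27.6 ± 0.474 in MLE12 (-1.84 ± 0.07, adjusted p = 2.25e-15). Stat3, the main STAT of gp130 receptors, was at 57.8 ± 2.15 CPM in LLC1 against 165 ± 9.07 in MLE12 (-1.51 ± 0.05), and Stat5a had the largest difference of the list (-3.15 ± 0.07). Stat6, the STAT of interleukin-4 signalling, was the exception, with 125 ± 8.55 CPM in LLC1 against 71.3 ± 3.39 in MLE12 (0.80 ± 0.05). Its receptor gene Il4ra went the same way, with 41.7 ± 1.21 CPM in LLC1 against 5.44 ± 0.794 in MLE12 (2.93 ± 0.08).

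**Figure D5:**
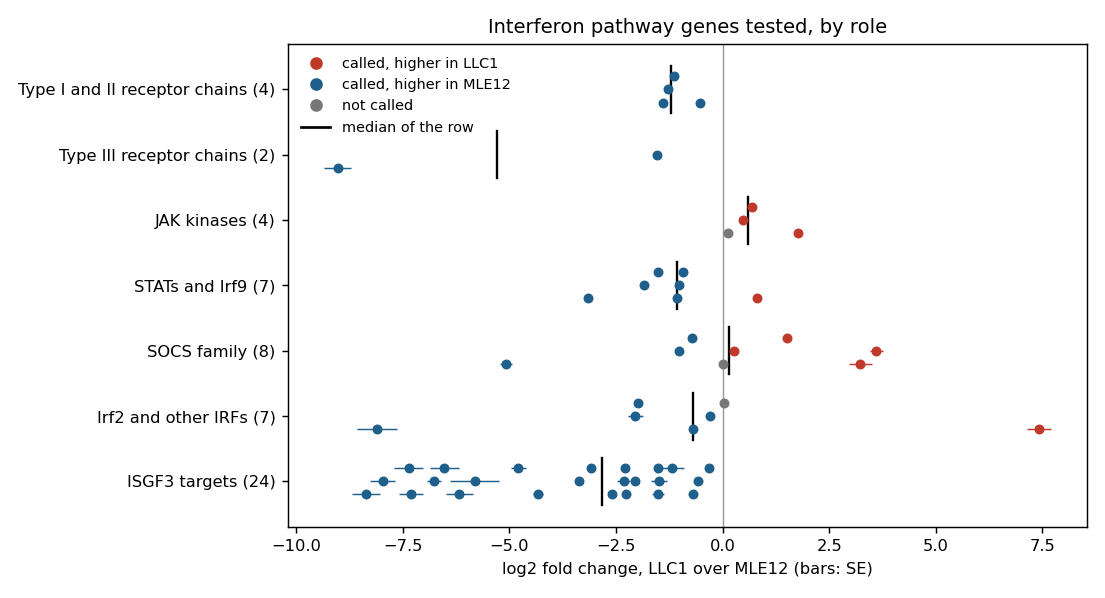
Log2 fold change, LLC1 over MLE12, with SE, of every tested gene of the lists shown, grouped by role with the number tested in brackets and the median of each row as a black line. Receptor chains, STATs and target genes lie mainly left of 0 (higher in MLE12), JAK kinases lie right of 0, and the SOCS genes fall on both sides.

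Other receptor chains that use JAK kinases split evenly. Of 30 listed, 17 were tested. LLC1 had the higher level for 8, MLE12 for 8, and the gp130 gene Il6st was not called (96.9 ± 2.63 CPM in LLC1 against 101 ± 6.09 in MLE12, -0.06 ± 0.05, adjusted p = 0.225), with a median of -0.06. Toward LLC1, besides Il4ra, the largest differences were those of the growth hormone receptor gene Ghr (2.88 ± 0.07) and the interleukin-6 receptor gene Il6ra (2.73 ± 0.09). Toward MLE12 they included the leukaemia inhibitory factor receptor gene Lifr (-5.48 ± 0.21) and the erythropoietin receptor gene Epor (-3.18 ± 0.13). Csf2ra, the alpha chain for GM-CSF, had 2 counts in LLC1, both in replicate 2, and 619 in MLE12. The ratio was 233, with a counting interval of 64.1 to 1925 that treats counts as independent.

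Genes listed as further regulators of JAK-STAT signalling, most of them negative, were more often higher in MLE12. Of 14 tested, 2 were called toward LLC1 (40.7% of all genes), 9 toward MLE12 (40.9%) and 3 not at all. Their median was -0.29. Usp18, an interferon-induced protease that binds IFNAR2 and displaces JAK1, stood at 0.190 ± 0.0829 CPM in LLC1 against 2.60 ± 0.282 in MLE12 (-3.75 ± 0.25, adjusted p = 4.35e-11), again opposite to Socs1. The galectin-3 binding protein gene Lgals3bp (-4.14 ± 0.06) and the phosphatase gene Dusp3 (-2.03 ± 0.05) were also higher in MLE12. Toward LLC1 were Ptpn6, which encodes the phosphatase SHP-1 and is best known from blood cells (13.2 ± 0.881 CPM in LLC1 against 0.694 ± 0.159 in MLE12; 4.26 ± 0.13), and Sh2b3, the adaptor LNK that restrains JAK2 (172 ± 9.91 CPM in LLC1 against 30.0 ± 1.49 in MLE12; 2.52 ± 0.05). Genes for receptor ubiquitination and for scaffolds were called about as often as all genes and in both directions. LLC1 had the higher level for 5 of these 10 and MLE12 for 3, and 2 were not called, with a median of 0.12. None was over 2-fold in LLC1 and 1, Prkd2, a kinase that takes part in IFNAR1 ubiquitination, was in MLE12 (-1.44 ± 0.07). The count higher in MLE12 rose from 3 to 5 with library totals alone as the scaling.

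Interferon genes themselves were at or near 0. None of 21 listed was tested: 15 had no count in any library, and together the list had 49 counts in LLC1 and 32 in MLE12. Ifnb1 and Ifng, named after their values were seen, had 0 counts in all 8 libraries, and a count of 0 allows up to 0.0391 CPM in the deepest and 0.064 CPM in the shallowest library, for counting error only. Target genes of interferon signalling were nonetheless detected in both lines. Of 28 genes known as targets of ISGF3, 24 were tested. All 24 were higher in MLE12, as were 40.9% of all genes, and their median was -2.84. Some of them, such as Oas1a and Ifit1, had so few LLC1 counts that they could be tested only through MLE12. Of the genes not tested, Oas3 had 50 counts in LLC1 and 29 in MLE12. Mx1, Oas2 and Zbp1 had 0 counts in LLC1 and 20 to 47 in MLE12. Of the 24, 12 reached 1 CPM in LLC1 and 22 in MLE12, and the whole list summed to 196 to 205 CPM in LLC1 and 551 to 564 CPM in MLE12. The differences ranged widely: the smallest, chosen after their values were seen, were those of Ifit2 (-0.31 ± 0.06), Trim25 (-0.58 ± 0.04) and Eif2ak2 (-0.70 ± 0.05), which stood at 29.0, 76.1 and 39.9 CPM in LLC1. The antiviral genes Ifit1 (-7.36 ± 0.34) and Oasl2 (-7.97 ± 0.30) had 4 and 5 counts over the LLC1 libraries, and Oas1a had 2 in LLC1 and 1125 in MLE12, a ratio of 423 with a counting interval of 117 to 3496. The targets of STAT3 showed no such lean, although Stat3 itself was higher in MLE12: of 13, LLC1 had the higher level for 4 and MLE12 for 6, and 3 were not called, with a median of -0.10. The early response genes Fos (-5.69 ± 0.30) and Junb (-1.74 ± 0.05) were higher in MLE12 and Hif1a, the hypoxia factor, higher in LLC1 (1.74 ± 0.04).

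The order of the 10 levels per kb also differed between the lines. In LLC1 Jak1 led with 27.9 ± 0.848 CPM per kb, followed by Socs3 (12.4 ± 0.651), then Tyk2 (9.01) and Irf2 (8.80), which overlapped, Ifnar1 (7.67), then Ifngr2 (6.84), Socs1 (6.34) and Jak2 (6.20), each overlapping the next, and last Ifnar2 (5.34) and Ifngr1 (5.30), which overlapped. In MLE12 Ifnar1 led with 20.2 ± 1.1, followed by Jak1 (17.3) and Ifngr2 (16.6), which overlapped, Irf2 (14.3), Ifngr1 (11.6), Socs3 (10.4), Tyk2 (8.19) and Ifnar2 (7.71), which overlapped, Jak2 (4.46) and Socs1 (0.528 ± 0.105). Ifnar1 moved from the fifth place in LLC1 to the first in MLE12, and Socs1 from the seventh to the last. These places depend on the length used: with the exon lengths of GENCODE M21, which are longer for Socs1, Irf2 and Tyk2 than the deposited ones, Irf2 came to 2.96 CPM per kb in LLC1 and 4.80 in MLE12 and Socs1 to 2.66 and 0.222. By those lengths Socs1 took place 10 in both lines, and Ifnar1 moved from place 3 in LLC1 to place 1 in MLE12. Differences between the lines for a given gene or ratio are not affected by length.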

How the data were processed

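RNA of LLC1 and MLE12 cells was measured as poly-A selected, randomly primed, paired-end libraries, per the labels' protocols. The authors deposited raw counts per gene, with a length for each gene. CASAVA, TopHat2, featureCounts and edgeR are named with build mm10 in the submitters' processing notes. For versions, strand setting and annotation release the entry is: not given in the sources used here. More genes had 2 counts than 1 in all 8 libraries, so whether a count is a read or a read pair is unclear. Counting intervals treat counts as independent and would be too narrow if 2 counts came from 1 pair.

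Groups follow the labelled cell line. R 4.3.3 with edgeR 4.0.16 was used: filterByExpr selected genes, TMM set the scaling factors (0.924 to 1.04), and glmQLFit (robust) with glmQLFTest was fitted to all 8 libraries without covariates, with Benjamini-Hochberg adjustment over all 18546 genes tested. glmTreat tested against a fold of 2. CPM use scaled totals of all deposited genes, and values are mean ± SD (n = 4). The fit was tested on simulated data with few genes changed and the same variability setting for all genes. A comparison in which most genes differ, as here, was not simulated. Intervals and floors of 3 counts cover counting error only, since the labels name PCR enrichment and no molecular identifiers. Replicates of a line differed beyond sampling noise in each pair (chi-square over its degrees of freedom 6.76 to 58.4).

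The 10 genes, the pathway lists and the tests were chosen with earlier results of these data known. Up to 3 called genes per list and direction could be named, those that changed most among genes reaching 1 CPM in either line, and Jak3, Il10rb, Ifnlr1, Stat2, Stat3, Irf9, Irf1, Cish, Socs2 and Usp18 always were. Some genes and 1 list are not reported here. Cluster genes were named if tested. Socs5, Irf5, Il6st, Il2rg, Ifnb1, Ifng, Ifit2, Trim25, Eif2ak2, Mx1, Oas2, Oas3, Zbp1, Gm21970 and 1700084C06Rik were named after their values were seen. Alternatives were DESeq2 1.42.0, limma-voom (limma 3.58.1), other scalings and filters, the 20 most abundant genes removed, each library left out, and the replicate number as a block. Gene structures came from GENCODE M21 (GRCm38), and its exon lengths were an alternative chosen after seeing the data.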

Additional observations from a re-analysis of the deposited data

Results flagged for a closer look

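In 3 of 20 sets of 4 libraries (10 genes in each line) 1 library lay far from the others of its line by Dixon's criterion, where chance gives about 1 in 20. All 3 were low values in MLE12. Ifnar1 stood at 109.1 CPM in MLE12 replicate 4, with the nearest library at 121 CPM. Tyk2 stood at 32.8 CPM in the same library, with the nearest at 39.0 CPM. Ifngr2 stood at 52.4 CPM in MLE12 replicate 2, with the nearest at 55.6 CPM. MLE12 replicate 4 was also the shallowest of its line (48.6 M counts). Without it the log2 fold change of Ifnar1 was -1.44, and Ifnar1 and Ifngr2 were called in every alternative tried.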

How the results depend on the processing

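Ifnar1, Ifnar2, Ifngr1, Ifngr2, Jak1, Jak2, Socs1, Socs3 and Irf2 kept their direction and their call in all 17 alternatives each. No list gene that was named for its largest change, or always named, reversed. Genes named outside those rules, among them Socs5, Irf5, Il6st, Ifit2, Trim25, Eif2ak2 and most cluster genes, were not followed singly through the alternatives. Socs1 ran from 3.49 to 3.70 and Socs3, the smallest called difference, from 0.16 to 0.32. Tyk2 was called in 5 of 17 alternatives, among them upper-quartile factors (0.19, adjusted p = 0.00953) and at least 1 CPM in 4 libraries (0.19, 0.0134), and its adjusted p ran up to 0.628. The call of Ifngr1 over 2-fold ended with upper-quartile factors (adjusted p = 0.162), with at least 1 CPM in 4 libraries (0.153) and with the replicate block (0.062), beside the 3 left-out libraries named above. With no filter on low counts 1 target gene of ISGF3 was called toward LLC1, in place of 0. With library totals alone the median log2 fold change of all genes fell by 0.099.

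The labels number the libraries of both lines 1 to 4. Deviations of same-numbered libraries were at most weakly correlated (r of -0.198 to 0.164 across genes). LLC1 replicates 2 and 3 matched best to the same number in MLE12, and replicates 1 and 4 to another number. With 4 libraries a line, such weak correlations cannot decide whether the numbers mark pairs. With the replicate number as a block 14795 genes were called in place of 15132, the same 9 of the 10 genes among them.

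With GENCODE M21 exon lengths 8 of 20 levels per kb moved by more than their SD, as did 7 line means of ratios and 30 of family shares and sums, while the folds between the lines of single genes and ratios do not depend on length. Depth limits Socs1 in MLE12 (40 to 52 counts a library) and the genes with 1 to 5 counts in LLC1.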
